A study of Mus musculus with 4 samples.

Results

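Fatty acid oxidation was followed through 41 genes of the 49315 in the count table, chosen by name as enzymes, carriers and coactivators of the mitochondrial and peroxisomal pathways and matched by Ensembl gene ID. The cells were macrophages grown from the bone marrow of Lyz2Cre+ mice, in which the Cre recombinase gene sits in the Lyz2 locus and is active in myeloid cells, so all 4 libraries share that allele. On day 7 of culture they were given serum-free medium for 24 hours holding either the inflammatory or M1 stimulus, LPS at 100 ng/ml plus interferon gamma at 50 ng/ml (2 libraries), or the alternative or M2 stimulus, IL-4 plus IL-13, each at 10 ng/ml (2 libraries). No source used here gives the age of the mice or says whether the libraries of a group stem from different mice or dishes, so a p-value measures only the spread among libraries, possibly a technical one. The treatment text also mentions the EGFR inhibitor erlotinib, without telling if it was given to these cells. Without an untreated group, a gene described here as higher in M2 may equally be lower in M1.

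Mitochondria and peroxisomes both shorten fatty acids by a repeating spiral that dehydrogenates, hydrates, dehydrogenates again and cleaves off acetyl-CoA. A fatty acid is first joined to coenzyme A by an acyl-CoA synthetase, and long chains enter mitochondria as carnitine esters. Separate enzymes handle long chains, in part at the inner mitochondrial membrane, and shorter chains in the matrix. Electrons of the first step leave through the electron transfer flavoprotein. Peroxisomes take very long and branched chains and hand the shortened products on. IL-4-activated macrophages are known for oxidizing fatty acids, and LPS-activated macrophages for relying on glycolysis.

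The libraries held 26806370 to 39506242 gene counts. Levels are given in CPM, counts scaled to sequencing depth with edgeR's TMM factors, and all fold changes are M2 against M1 on that scale. Across genes, which are no independent replicates, Pearson's r was 0.994 within M1 and 0.996 within M2, against 0.819 to 0.822 between groups. Of 8 macrophage markers, all were tested, 2 were higher and 6 lower in M2, and their summed level was 8208 and 8194 CPM in M1 and 4482 and 4367 in M2. The macrophage gene Lyz2, whose locus carries Cre, had 25.3 and 27.3 CPM in M1 and 6.51 and 6.88 in M2. Neutrophil, mast cell, lymphocyte and erythroid marker lists summed to less than 10 CPM in every library. Of 4 dendritic cell markers 1 rose and 2 fell, with summed levels of 32.8 and 33.6 CPM in M1 and 2.52 and 2.11 in M2, of which Xcr1 made up nearly all in M1. Of 6 stromal and adipocyte markers 5 were tested and all 5 were higher in M2. They summed to 100.1 and 96.7 CPM in M1 and 1131 and 1155 in M2, mostly Col1a1 and Col1a2. The adipocyte gene Adipoq was uncounted in M1 and had 0.543 and 0.478 CPM in M2, and Plin1 did not exceed 0.0343 CPM in any library. The part of stromal cells in the results below was not tested, and in bulk RNA fewer cells of a type and less RNA per cell cannot be told apart.

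The enzymes downstream of activation were mostly higher in M2, and 3 of the 4 Acsl synthetases listed were lower. Of the 41 genes, 37 passed the filter on low counts. With edgeR's quasi-likelihood test, 27 of the 37 (73.0%) were higher in M2 and 5 (13.5%) were lower, at an adjusted p under 0.05, and 5 were not called. That is 86.5% called, against 77.2% of all 14656 tested genes, of which 39.7% were higher and 37.5% lower. The median log2 fold change was 0.77 over the 37 and 0.04 over all tested genes. By at least 1 log2 unit, 18 were higher and 3 lower, against 22.5% and 18.2% of all tested genes. The M1 and M2 libraries did not overlap for 34 of the 37, a share close to the 88.5% found across all tested genes.

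**Figure D1:**
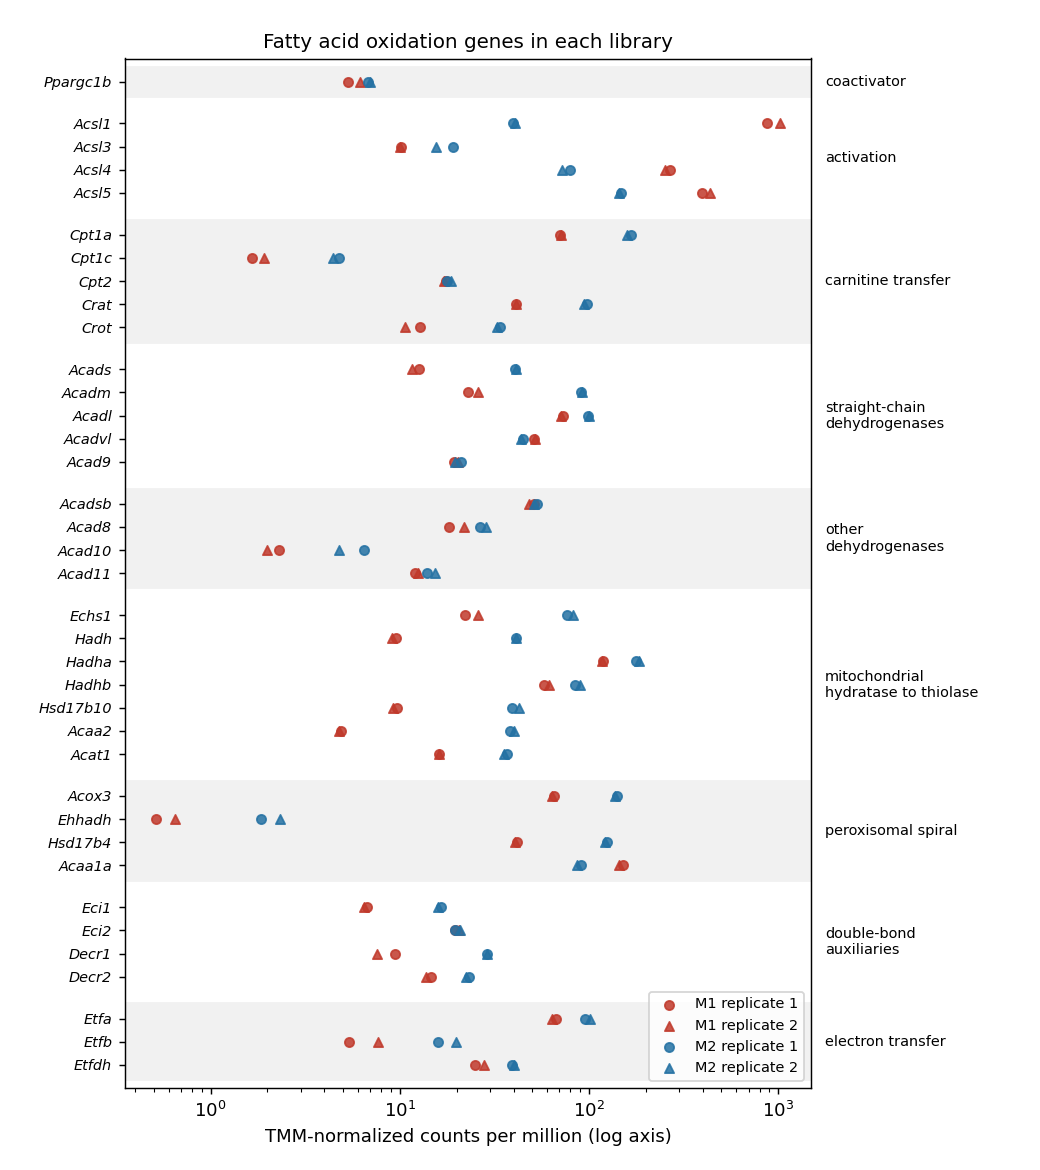
Level in TMM-scaled CPM (log axis) of the 37 tested fatty acid oxidation genes, ordered by step, with M1 libraries in red, M2 libraries in blue, circles for replicate 1 and triangles for replicate 2. Acsl1, Acsl4, Acsl5 and Acaa1a lie to the right in M1, whereas the mitochondrial hydratase to thiolase genes all lie to the right in M2.

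By location, 18 of 22 tested mitochondrial genes rose (81.8%, against 39.7% of all tested genes) and 1 fell (4.55%, against 37.5%). Their median log2 fold change was 1.19. Their summed level, over all 23 listed, was 692 and 701 CPM in the M1 libraries and 1262 and 1284 CPM in the M2 libraries. Of 6 tested peroxisomal genes 5 rose (83.3%) and 1 fell (16.7%). The summed level of the 8 listed went from 287 and 275 CPM to 416 and 405 CPM. Both organelles' sums were therefore higher in each M2 library than in either M1 library. Whether the organelles differed from each other in their change was not tested. All members together nevertheless summed to more in M1, 2612 and 2789 CPM, than in M2, 2106 and 2104 CPM. Without the 4 synthetases that order turned, to 1059 and 1059 CPM in M1 and 1820.0 and 1831 CPM in M2.

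**Figure D2:**
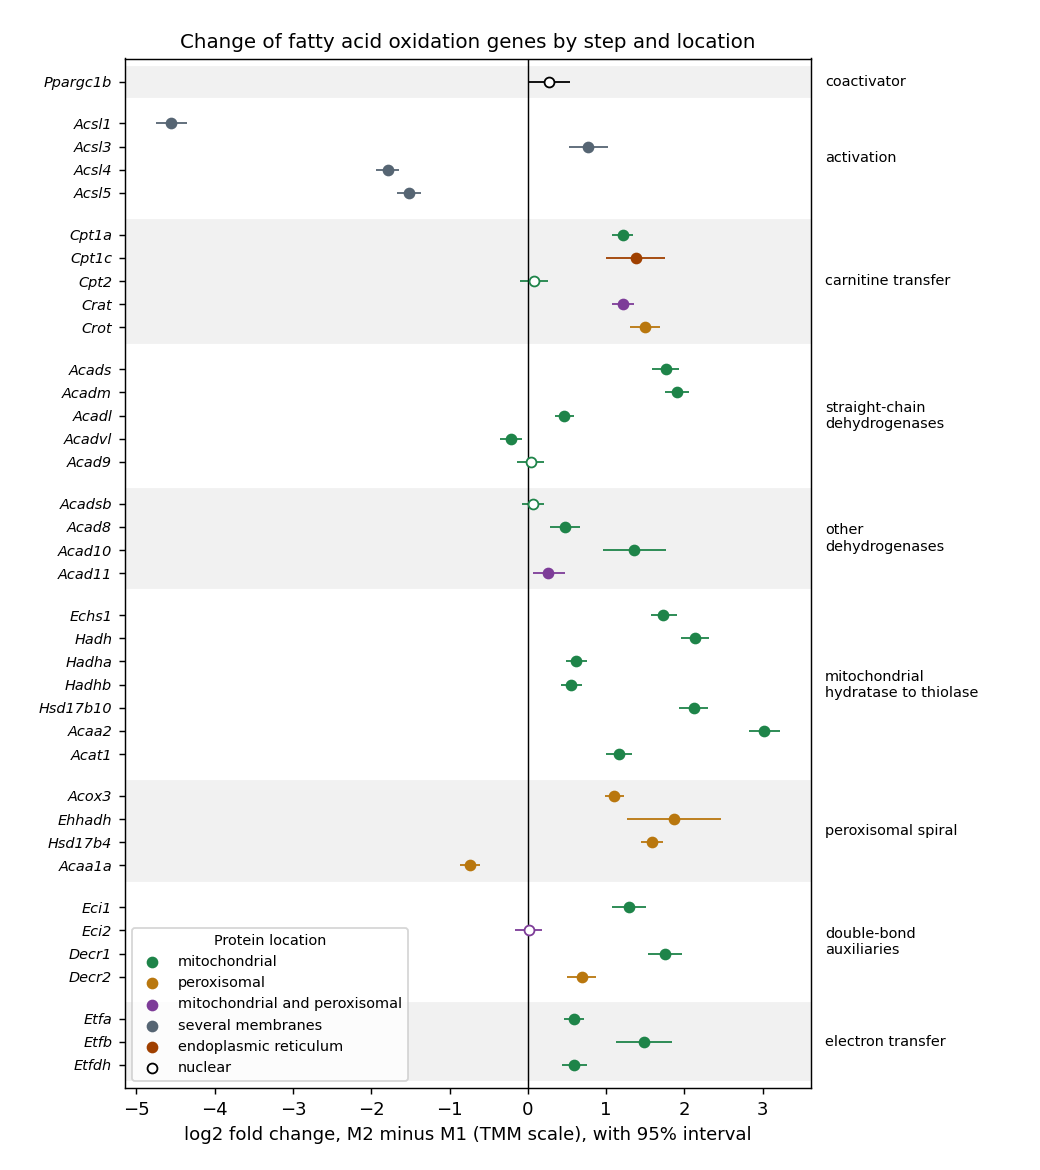
Log2 fold change (M2 minus M1, TMM scale) of the 37 tested genes, coloured by the location of the protein, with 95% intervals from the edgeR fit. Filled points passed an adjusted p under 0.05 and open points did not. The values run from -4.56 for Acsl1 to 3.02 for Acaa2.

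The coactivators PGC-1 alpha and PGC-1 beta, which raise the transcription of mitochondrial genes, showed little signal. Ppargc1a had 3, 0, 0 and 1 counts in the 4 libraries and was not tested. Ppargc1b had 5.32 and 6.18 CPM in M1 and 6.77 and 6.99 CPM in M2. Its log2 fold change of 0.27 ± 0.13 (SE), with a 95% interval of 0.00 to 0.54, was not called (edgeR adjusted p = 0.0678). Both M2 libraries were above both M1 libraries, but the groups also did not overlap for 88.5% of all tested genes. The call changed with the scaling: under upper-quartile factors it was higher in M2 by 0.45 (adjusted p = 0.00454) and under library totals by 0.71 (adjusted p = 0.000136), it also passed with a filter of 5 CPM (0.29, adjusted p = 0.0477), and without M1 replicate 2 it was 0.37 (adjusted p = 0.0178).

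Activation was the step with the largest falls. Acsl1, a long-chain acyl-CoA synthetase encoded at chr8:46471037-46536051 (GRCm38), had 877 and 1026 CPM in the M1 libraries and 39.8 and 40.9 CPM in the M2 libraries, and was 23.6-fold lower in M2 (log2 fold change -4.56 ± 0.09, edgeR adjusted p = 2.28e-15). Acsl4, which prefers arachidonic acid and other polyunsaturated chains, had 269.9 and 254 CPM in M1 and 79.5 and 72.3 CPM in M2, 3.45-fold lower (adjusted p = 2.26e-12). Acsl5, found on mitochondria and endoplasmic reticulum, had 397 and 440.2 CPM in M1 and 147 and 145 CPM in M2, 2.86-fold lower (adjusted p = 1.79e-11). In all of these the groups stood apart by more than the replicates differed. Acsl3, a synthetase of lipid droplets and endoplasmic reticulum, was the exception and rose 1.71-fold from 10.2 and 10.0 CPM to 19.3 and 15.5 CPM (adjusted p = 2.21e-05), with M2 replicate 1 above replicate 2.

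The make-up of the synthetase pool differed as well. Per kilobase of exon, Acsl1 made up 38.5 and 41.2% of the summed level of the 4 synthetases in the M1 libraries and 7.13 and 7.71% in the M2 libraries. Acsl5 made up 37.5 and 38.1% in M1 and 56.9 and 58.8% in M2, where it was the most abundant of them. These shares do not depend on the scaling of libraries. The pool itself went from 218 and 238 CPM per kilobase to 53.2 and 50.6 CPM per kilobase. Acsl5 shares 404 exon bases with Zdhhc6 on the opposite strand, and a kit that does not mark strand cannot separate their reads there. Acsl3 likewise shares 244 bases with Utp14b, which had 630 counts against its own 1860 over the 4 libraries.

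**Figure D3:**
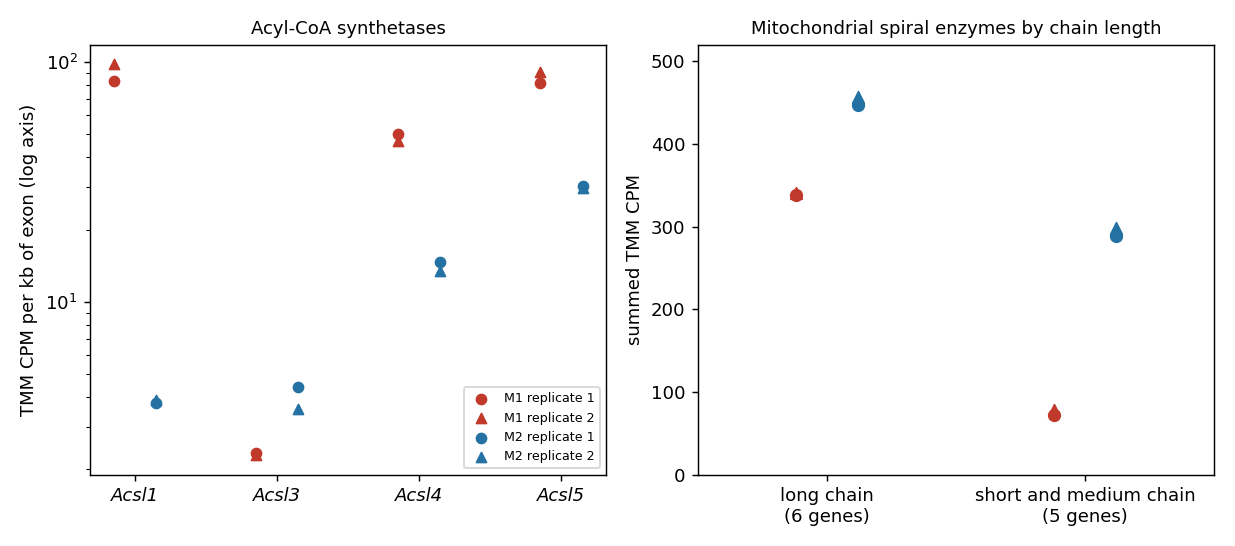
Left, the 4 acyl-CoA synthetase genes in CPM per kilobase of exon (log axis) in each library, with M1 in red and M2 in blue; Acsl1 averaged 90.8 in M1 and 3.85 in M2. Right, summed CPM of 6 long-chain and 5 short- and medium-chain mitochondrial enzymes, where the long-chain sum exceeded the other in every library and by a smaller ratio in M2.

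Of 5 tested carnitine acyltransferase genes 4 rose (80.0%, against 39.7% of all tested genes) and 1 was not called. On the long-chain route into mitochondria Cpt1a rose, Cpt2 was not called and the translocase gene Slc25a20 fell. Cpt1a, the carnitine palmitoyltransferase of the outer mitochondrial membrane and the regulated entry step, had 70.3 and 70.9 CPM in M1 and 167 and 159 CPM in M2, a 2.31-fold rise (log2 1.21 ± 0.06, edgeR adjusted p = 7.14e-11). It was the main form, with 96.2 and 95.4% of the summed Cpt1 level per kilobase in M1 and 96.1 and 96.1% in M2. The muscle form Cpt1b had 7, 9, 3 and 9 counts and was not tested. The brain form Cpt1c, located in the endoplasmic reticulum, rose from 1.65 and 1.91 CPM to 4.79 and 4.45 CPM (adjusted p = 3.69e-06).

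Cpt2, which remakes acyl-CoA on the inner membrane, had 17.6 and 17.2 CPM in M1 and 17.9 and 18.8 CPM in M2. Its log2 fold change of 0.08, with an interval of -0.10 to 0.26, was not called (adjusted p = 0.406). The ratio of Cpt1a to Cpt2 per kilobase was 1.25 and 1.29 in the M1 libraries and 2.93 and 2.65 in the M2 libraries. Slc25a20, the translocase that carries acylcarnitines between these enzymes and was counted outside the 41, moved the other way, from 72.0 and 71.6 CPM in M1 to 31.3 and 31.9 CPM in M2 (log2 -1.19 ± 0.06, adjusted p = 1.21e-10).

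The acyltransferases for shorter chains rose. Crat, which makes acetylcarnitine, had 41.1 and 41.4 CPM in M1 and 97.4 and 94.3 CPM in M2, 2.32-fold higher (adjusted p = 6.76e-11). Crot, the peroxisomal octanoyltransferase that passes medium chains out, had 12.8 and 10.7 CPM in M1 and 34.0 and 32.7 CPM in M2, 2.82-fold higher (adjusted p = 6.54e-10). For both genes each M2 library exceeded both M1 libraries by far more than replicates differed.

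At the first oxidation in mitochondria, 3 of 5 straight-chain dehydrogenases rose, 1 fell and 1 was not called. Acadm, the medium-chain dehydrogenase, had 23.1 and 26.1 CPM in M1 and 91.0 and 92.5 CPM in M2 and was 3.74-fold higher (log2 1.90 ± 0.07, edgeR adjusted p = 1.58e-12). Acads, the short-chain enzyme, had 12.6 and 11.7 CPM in M1 and 40.8 and 41.5 CPM in M2 and was 3.38-fold higher (adjusted p = 1.59e-11). Acadl, the long-chain enzyme and per kilobase the most abundant of the 5 (36.1 CPM per kilobase in M1 and 49.7 in M2), rose less, from 73.0 and 71.6 CPM to 99.3 and 100.1 CPM (1.38-fold, adjusted p = 3.51e-06).

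Acadvl, the membrane-bound very-long-chain enzyme, had 51.2 and 52.0 CPM in M1 and 45.1 and 43.7 CPM in M2. It was called lower in M2 (log2 -0.22 ± 0.06, edgeR adjusted p = 0.00601), but that call reversed to a rise of 0.23 under library totals and ended under upper-quartile factors, at -0.03. It also ended without the filter on low counts (-0.16) and without M2 replicate 1 (-0.22) or M2 replicate 2 (-0.18). Acadvl shares 1151 exon bases with Dvl2 on the opposite strand. Acad9, a related dehydrogenase that also helps to assemble respiratory complex I, had 19.4 and 20.3 CPM in M1 and 21.0 and 19.7 CPM in M2 and was not called (interval -0.14 to 0.21, adjusted p = 0.701). Its groups overlapped.

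Of 4 further dehydrogenases 3 rose (75.0%, against 39.7% of all tested genes). Acadsb, which acts on a product of isoleucine, was the most abundant of them per kilobase, with 51.5 and 48.5 CPM in M1 and 53.0 and 51.4 CPM in M2, and was not called (log2 0.06, interval -0.08 to 0.20, adjusted p = 0.413). Acad8, the isobutyryl-CoA dehydrogenase of valine breakdown, rose 1.39-fold (adjusted p = 0.000266). Acad10 rose from 2.30 and 1.99 CPM to 6.45 and 4.80 CPM (2.57-fold, adjusted p = 1.05e-05). Acad11 rose by 0.26 on the log2 scale (adjusted p = 0.0209), a call lost with DESeq2 (0.23, adjusted p = 0.158) and without M2 replicate 2 (0.20, adjusted p = 0.245).

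All 7 genes of the mitochondrial hydratase, second dehydrogenase and thiolase steps rose, against 39.7% of all tested genes. Their median log2 fold change was 1.73. Acaa2, the 3-ketoacyl-CoA thiolase of the matrix, had 4.87 and 4.80 CPM in M1 and 38.5 and 40.1 CPM in M2, and its 8.12-fold difference was the largest rise among the tested members (log2 3.02 ± 0.09, edgeR adjusted p = 1.38e-13). Hadh, the short- and medium-chain hydroxyacyl-CoA dehydrogenase, had 9.58 and 9.15 CPM in M1 and 41.1 and 41.4 CPM in M2, 4.40-fold higher (adjusted p = 1.96e-12). Hsd17b10, a second dehydrogenase of short and branched chains that is also a subunit of mitochondrial RNase P, had 9.68 and 9.27 CPM in M1 and 39.4 and 42.7 CPM in M2, 4.34-fold higher (adjusted p = 3.82e-12). In these genes each group's replicates lay close together.

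Echs1, the short-chain enoyl-CoA hydratase, had 22.2 and 25.9 CPM in M1 and 77.1 and 82.4 CPM in M2, 3.33-fold higher (adjusted p = 2.04e-11). Acat1, the acetoacetyl-CoA thiolase, had 16.1 and 16.2 CPM in M1 and 37.1 and 35.4 CPM in M2, 2.24-fold higher (log2 1.16 ± 0.08, adjusted p = 1.6e-09). Per kilobase, Hsd17b10 was the most abundant of the 7 in M2, at 31.6 CPM per kilobase, and Hadha in M1, at 13.6. That ranking depends on exon lengths, 1.298 kb for Hsd17b10 and 8.73 kb for Hadha. In CPM, Hadha was the highest of the 7 in both groups, with means of 118 in M1 and 181 in M2.

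Hadha and Hadhb encode the subunits of the trifunctional protein, which carries out the last 3 reactions on long chains, and both rose, with the smallest fold changes of the 7. Hadha (chr5:30118304-30155162, minus strand) had 119 and 118 CPM in M1 and 179 and 184 CPM in M2, 1.53-fold higher. Hadhb (chr5:30155248-30184593, plus strand) had 57.9 and 61.4 CPM in M1 and 84.5 and 90.3 CPM in M2, 1.47-fold higher. The log2 fold changes were 0.62 ± 0.06 and 0.55 ± 0.06 (edgeR adjusted p = 1.92e-07 and 1.31e-06). Their ratio per kilobase was 1.55 and 1.45 in the M1 libraries and 1.60 and 1.54 in the M2 libraries, so the ranges of the groups overlapped while both levels rose. The genes are transcribed away from each other, and 85 bases separate their GENCODE starts. RefSeq's promoter table places the Hadha start elsewhere, with the 250 bases before it at chr5:30154981-30155230. The stretch between the GENCODE starts is shown because both genes begin at its ends in that annotation. It is given for the plus strand of chr5:30155163-30155247 (GRCm38.p6), as RefSeq's promoter table holds it, and 69.4% of its bases are C or G, with 9 CG pairs:
Hadha to Hadhb: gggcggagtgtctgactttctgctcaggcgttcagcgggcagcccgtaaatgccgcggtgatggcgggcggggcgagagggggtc

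Within mitochondria, 5 enzymes of straight short and medium chains were set beside 6 of long chains, groups made after the values were seen and therefore not tested. The 5 (Acads, Acadm, Echs1, Hadh and Acaa2) rose by 1.73 to 3.02 on the log2 scale. The 6 (Cpt2, Acadvl, Acadl, Acad9, Hadha and Hadhb) ranged from -0.22 to 0.62. Cpt1a, also specific for long chains but placed on the outer membrane, lay between these ranges at 1.21. Other mitochondrial enzymes of short substrates, outside the 5, did not all share their range: Acat1 was at 1.16, and of those acting on branched chains Acad8 was at 0.48 and Acadsb, not called, at 0.06. The long-chain enzymes summed to 338 and 340.4 CPM in M1 and 446 and 457 CPM in M2. The short- and medium-chain enzymes summed to 72.4 and 77.6 CPM in M1 and 288 and 298 CPM in M2. The ratio of these sums was 4.67 and 4.39 in the M1 libraries and 1.55 and 1.53 in the M2 libraries, values that the scaling of libraries cannot move. Between the thiolases, Hadhb exceeded Acaa2 per kilobase in M1 (ratios of 2.73 and 2.94) and fell below it in M2 (0.504 and 0.518). The order in M2 depends on exon lengths of 6.595 kb for Hadhb and 1.516 kb for Acaa2. In CPM, Hadhb stayed higher in M2, at 84.5 and 90.3 against 38.5 and 40.1.

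The peroxisomal spiral rose at its oxidase and multifunctional steps and fell at its thiolase. Acox3, an oxidase of branched chains, had 65.8 and 64.2 CPM in M1 and 141 and 138 CPM in M2, 2.15-fold higher (edgeR adjusted p = 1.61e-10). Hsd17b4, the D-bifunctional protein that hydrates and dehydrogenates, had 41.8 and 40.7 CPM in M1 and 125 and 122 CPM in M2, a log2 fold change of 1.58 ± 0.06 (adjusted p = 2.46e-12). Per kilobase it was the most abundant of the spiral in M2, at 36.4 CPM per kilobase against 20.1 for the thiolase Acaa1a, which led in M1 at 33.5 against 12.1. The ranking in M2 depends on exon length, because in CPM Acox3 exceeded Hsd17b4 there. Ehhadh, the L-bifunctional protein, was scarce at 0.515 and 0.651 CPM in M1 and 1.85 and 2.32 CPM in M2, from 15 and 16 counts against 58 and 107, and rose 3.64-fold (adjusted p = 2.17e-05). Acox2, an oxidase of bile acid intermediates in liver, had no count in any library, which allows up to 0.103 and 0.122 CPM in the M1 libraries and 0.0958 and 0.0651 CPM in the M2 libraries (3 counts, counting error only).

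Acaa1a, the peroxisomal 3-ketoacyl-CoA thiolase at chr9:119339676-119350299, had 151 and 145 CPM in M1 and 90.7 and 86.7 CPM in M2 and was 1.67-fold lower in M2 (log2 -0.74 ± 0.06, edgeR adjusted p = 2.76e-08). The fall held its call under every alternative run, down to -0.29 under library totals. Its exons share 290 bases with Myd88, the LPS-receptor adaptor on the opposite strand at chr9:119335934-119341411. Myd88 went from 216 and 207 CPM to 46.6 and 48.1 CPM, a log2 fold change of -2.16. Reads in the shared bases cannot be told apart without strand, and their part in the Acaa1a value was not tested. The ratio of Acox3 to Acaa1a per kilobase was 0.167 and 0.17 in M1 and 0.596 and 0.612 in M2. The paralog Acaa1b had 3, 3, 2 and 1 counts and was not tested. It is close in sequence to Acaa1a, so reads could be split between the copies by the authors' counting.

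Auxiliary enzymes that clear double bonds rose in 3 of 4 cases (75.0%, against 39.7% of all tested genes). Decr1, the mitochondrial 2,4-dienoyl-CoA reductase, had 9.51 and 7.57 CPM in M1 and 28.8 and 28.9 CPM in M2, 3.36-fold higher (edgeR adjusted p = 3.88e-10). Eci1, the mitochondrial enoyl-CoA isomerase, had 6.69 and 6.51 CPM in M1 and 16.5 and 15.9 CPM in M2, 2.45-fold higher (adjusted p = 1.4e-08). The peroxisomal reductase Decr2, per kilobase the most abundant of the group, rose from 14.7 and 13.7 CPM to 23.3 and 22.6 CPM (1.61-fold, adjusted p = 2.76e-06). In CPM, Decr2 was below Eci2 in M1 and below Decr1 in M2. Eci2, the isomerase found in both organelles, had 19.7 and 20.7 CPM in M1 and 19.7 and 20.8 CPM in M2. Its groups overlapped and it was not called (interval -0.17 to 0.18, adjusted p = 0.948).

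All 3 electron transfer genes rose, against 39.7% of all tested genes. Etfa, the alpha subunit of the flavoprotein and per kilobase the most abundant of the 3 in both groups, had 66.8 and 64.1 CPM in M1 and 95.7 and 101 CPM in M2, 1.51-fold higher (edgeR adjusted p = 4.1e-07). Etfb, the beta subunit, had 5.39 and 7.69 CPM in M1 and 16.0 and 19.8 CPM in M2, 2.78-fold higher (log2 1.48 ± 0.16, adjusted p = 1.09e-05), with unequal replicates in each group. The ratio of Etfa to Etfb per kilobase was 7.86 and 5.29 in M1 and 3.80 and 3.25 in M2. Etfdh, the oxidoreductase that passes the electrons to ubiquinone, rose from 25.1 and 28.0 CPM to 39.5 and 40.3 CPM (1.51-fold, adjusted p = 3.25e-06).

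RefSeq's promoter table (GRCm38.p6) held 35 windows for 33 of the 41 genes, each from 250 bases before to 50 after a start. Exact matches were sought on both strands to the DR1 element of PPAR and RXR (AGGTCA repeated with any 1 base between), the ERR element (TCAAGGTCA), the STAT palindrome (TTC and GAA with any 4 bases between) and the NRF-1 element, whose letters are the capitals printed at the end of the paragraph. The ERR element holds the AGGTCA of DR1. No window held the first 3, which occur in 0.0396%, 0.423% and 6.95% of all 32851 promoters in the table. The NRF-1 element, bound by the nuclear respiratory factor, was in 2 of the 35 windows and in 0.971% of all. It begins 128 bases before RefSeq's start of Etfdh and 8 bases before that of Acad10. GENCODE places the Etfdh start at chr3:79629500, so the match lies inside the gene in that annotation. The Acad10 start in GENCODE, chr5:121660514, lies within the stretch printed below. Both matches are printed for the minus strand with the element in capitals, from chr3:79628876-79628905 and chr5:121660499-121660528:
Etfdh: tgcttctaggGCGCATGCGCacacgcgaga
Acad10: ggccccgggcGCGCATGCGCtttcgacagc
A match describes letters only, and these genes' rises were 0.59 and 1.36 on the log2 scale.

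The scaling of libraries moved small changes. TMM factors were 0.846 and 0.866 in M1 and 1.17 and 1.17 in M2, and library totals alone raised the median log2 fold change of all tested genes by 0.448 against TMM, upper-quartile factors by 0.185. Among the 37 genes, library totals gave 33 higher and 4 lower in M2 (58.5% and 22.8% of all tested genes), and upper-quartile factors gave 32 higher and 4 lower (47.6% and 30.7%). Acsl1, Acsl4, Acsl5 and Acaa1a were called lower under each scaling. Cpt2, Acad9, Acadsb, Eci2 and Ppargc1b, not called under TMM, were called higher under both of these.

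**Figure D4:**
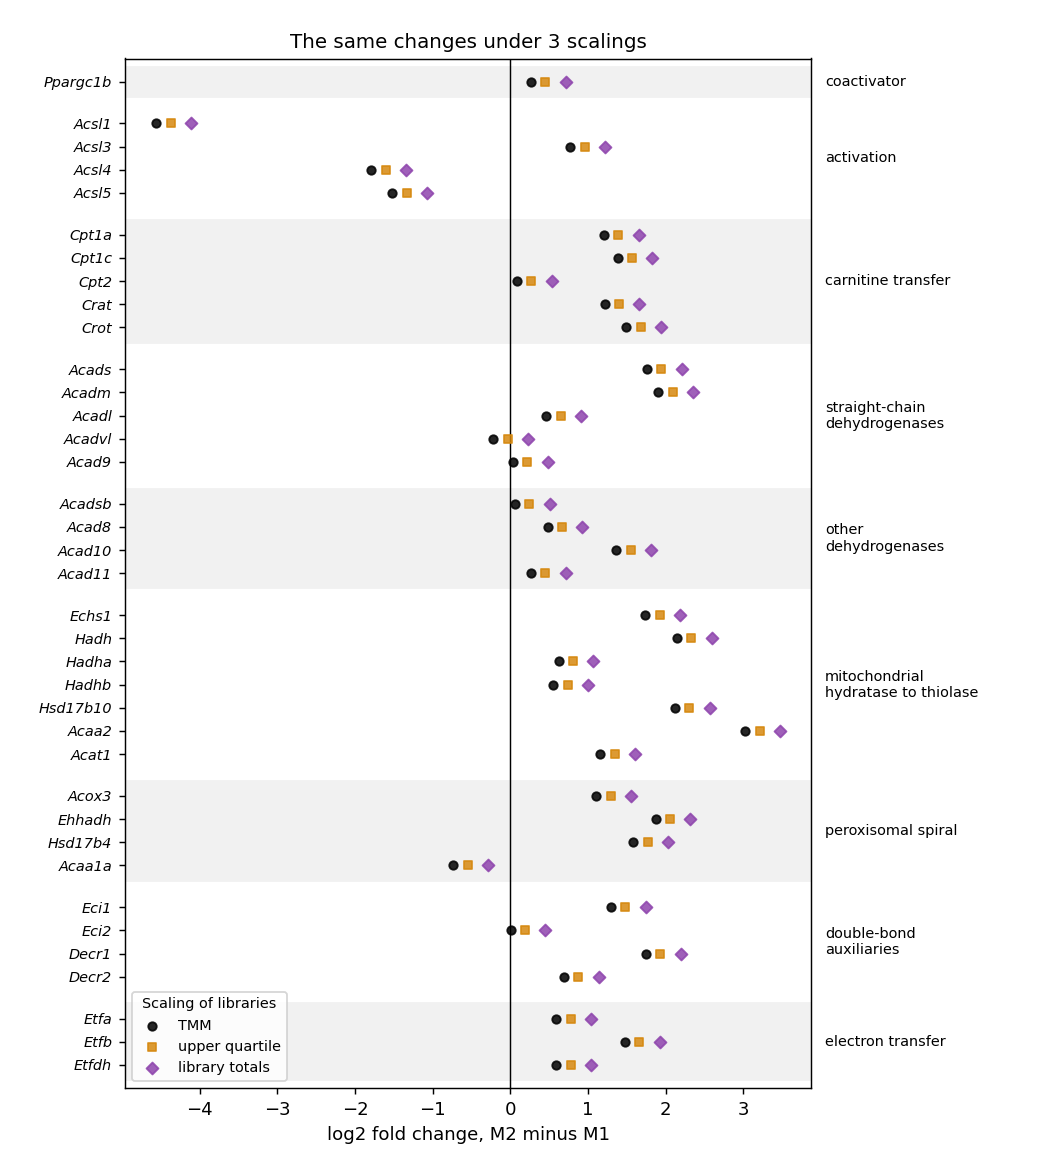
Log2 fold change (M2 minus M1) of the 37 tested genes under TMM (circles), upper-quartile (squares) and library-total scaling (diamonds). Each gene shifts right by a similar amount, and among called genes Acadvl alone crosses 0, from -0.22 to 0.23.

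Of 12 genes of fatty acid uptake, release and carnitine transport around the spiral, 7 rose (58.3%, against 39.7% of all tested genes), 4 fell (33.3%, against 37.5%) and 1 was not called. The lipoprotein lipase gene Lpl rose from 59.0 and 62.3 CPM to 8435 and 8272 CPM, and the fatty acid receptor gene Cd36 from 126 and 111 CPM to 2970.3 and 2995 CPM. Fabp4, a fatty acid binding protein, rose from 3.43 and 3.09 CPM to 119 and 133 CPM. The fatty acid transporter Slc27a4 fell from 68.3 and 64.7 CPM to 37.0 and 37.0 CPM, whereas Slc27a1 of the same family rose from 51.4 and 46.4 CPM to 210 and 220 CPM. The hormone-sensitive lipase gene Lipe fell by 1.62 on the log2 scale. Another lipase gene, Lipa, rose from 269 and 213 CPM to 2522 and 2506 CPM. The scarce Mgll also rose, and Pnpla2 was called lower, a call that library totals reversed. Of 18 tested regulators 8 rose, 8 fell and 2 were not called, with a median log2 fold change of 0.11. Their shares of 44.4% in each direction were near those of all tested genes. Library totals gave 13 higher and 3 lower, against 58.5% and 22.8% of all tested genes. Upper-quartile factors gave 10 and 4, against 47.6% and 30.7%. Pparg, a nuclear receptor that controls lipid genes, rose from 2.61 and 2.48 CPM to 135 and 133 CPM, and its partner Rxra rose 2.82-fold. Ppara, the receptor that governs oxidation genes in liver, had no count in any library. Esrra, the estrogen-related receptor that works with PGC-1 proteins, fell from 122 and 131 CPM to 61.6 and 62.0 CPM, and Ppard fell by 1.13 on the log2 scale.

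Of 20 genes of peroxisome assembly and membrane transport 9 rose, 3 fell and 8 were not called. The 45.0% that rose was near the 39.7% of all tested genes, and the 60.0% called was below their 77.2%. Library totals made that 17 higher and 0 lower, against 58.5% and 22.8% of all tested genes. Upper-quartile factors made it 15 higher and 3 lower, against 47.6% and 30.7%. The acyl-CoA transporters of the peroxisomal membrane led the rises. Abcd2 went from 0.583 and 0.366 CPM in M1 to 63.0 and 66.0 CPM in M2 (log2 7.05 ± 0.14, edgeR adjusted p = 7.5e-16), and Abcd3 rose from 29.6 and 28.3 CPM to 66.9 and 65.1 CPM. Pex16, Pex14 and Pex5, needed for peroxisomal membrane or matrix import, fell by 0.64, 0.52 and 0.50 on the log2 scale, calls lost under library totals (-0.19, -0.07 and -0.05).

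Of 13 tested peroxisomal lipid enzymes outside the 41, with catalase, 10 rose (76.9%), 2 fell (15.4%) and 1 was not called, against 39.7% higher and 37.5% lower among all tested genes. Ech1, a dienoyl-CoA isomerase, rose from 29.1 and 30.0 CPM to 66.2 and 69.5 CPM, and Phyh, which starts the breakdown of phytanic acid, fell from 50.5 and 41.6 CPM to 29.02 and 29.3 CPM. Of 7 acyl-CoA thioesterases 3 rose (42.9%) and 2 fell (28.6%), shares near those of all tested genes; Acot2 of the mitochondrial matrix went from 1.03 and 1.22 CPM to 12.5 and 12.4 CPM, and Acot7, a cytosolic form, from 142 and 141 CPM to 40.2 and 42.2 CPM. Acot2 is close in sequence to Acot1, so its counts could be split between the copies. Library totals gave 5 higher and 1 lower among the thioesterases, against 58.5% and 22.8% of all tested genes. Of 9 tested genes that handle propionyl-CoA, the last product of odd and branched chains, or ketone bodies, 7 rose (77.8%), 1 fell (11.1%) and 1 was not called. Pccb, a propionyl-CoA carboxylase subunit, rose from 8.65 and 9.52 CPM to 39.0 and 39.4 CPM, and Oxct1, which activates ketone bodies for oxidation, rose from 148 and 135 CPM to 448 and 438 CPM. The cytosolic thiolase Acat2 fell by 0.25 (adjusted p = 0.0403), a call that most alternatives ended and library totals turned to 0.20.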

How the data were processed

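Poly(A) RNA libraries made with a kit that does not mark strand were sequenced in 4 samples, per the labels' protocols. The authors deposited whole-number read counts per Ensembl gene. Trimmomatic 0.36 and STAR 2.5.2b are named by the submitters' processing notes, with featureCounts (Subread 1.5.2), DESeq, DESeq2 and the build GRCm38. Settings and annotation version are not stated by them. The authors' deposited comparison table was not used, because its symbols are shifted in part. IDs were matched to GENCODE vM21 (49056 of 49315).

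Counts were fitted with edgeR 4.0.16 in R 4.3.3 (filterByExpr with a count threshold of 10 and a total of 15, TMM, robust quasi-likelihood, two-sided, Benjamini-Hochberg over all 14656 tested genes, called under 0.05). Standard errors are the absolute log2 fold change over the root of F. Levels per kilobase use the union of all annotated exons, which need not be the length transcribed in these cells. Rankings between genes per kilobase depend on that length. Alternatives were RLE, upper-quartile and library-total scaling, no filter, a filter of 5 CPM in 2 libraries, DESeq2 1.42.0, limma-voom (limma 3.58.1), a non-robust spread and each library left out. The fit was also run on simulated counts in which few genes changed, up or down at random. Such counts cannot test the scaling of libraries, because 77.2% of tested genes were called in the real data. Replicates differed by more than counting noise (chi-square per degree of freedom of 14.7 in M1 and 2.41 in M2).

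Members and lists were chosen with earlier results of these data known. All 41 are reported, with library values for called changes of at least 1 log2 unit, for the most abundant per step and for those not called. From each other list, up to 3 called genes each way of at least 5 CPM could be named. Myd88, Dvl2, Utp14b, Zdhhc6, Slc27a1, Lipa, Mgll, Pnpla2 and the cell markers fall outside that rule, and the chain-length groups were made after the values were seen. Proteins of the families were not compared. Counts of the lists under other scalings were added after the data were seen.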

Additional observations from a re-analysis of the deposited data

How the results depend on the processing

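Over the alternatives, 26 to 33 members were higher and 4 or 5 lower in M2. The single mitochondrial member called lower, Acadvl, gave a count of 0 under library totals, upper-quartile factors and without the filter on low counts, and 0 to 1 when a library was left out. Of members and list genes named with values, Acadvl turned to 0.23 and Acat2 to 0.20 under library totals. Of the 8 regulators lower under TMM, 4 (Ncor1, Nrf1, Prkaa1 and Tfam) also passed 0, 3 of them called higher, as did Pnpla2 of the uptake and release genes; these were singled out after their values were seen. All tested genes lower in M2 numbered 3342 under library totals, against 5495 under TMM, and 8570 were higher, against 5817. RLE factors, limma-voom and the non-robust spread changed no member's call. With a library left out, counts of members ranged from 26 to 28 higher and 4 to 5 lower; the group with 1 library is then assumed to vary like the other. No paired analysis was possible because the labels give no replicate numbers; those used here follow the order of deposit and pair nothing. With 2 libraries per group, an exact permutation of the labels could not reach the threshold, so calls rest on the model's pooled spread. The 4 members Ppargc1a, Cpt1b, Acox2 and Acaa1b had too few counts to test, and depth limits what can be said of them.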
